A study of Sus scrofa with 21 samples.

Results

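Counts of 61 genes that build and regulate the sperm tail axoneme were taken from testis RNA of boars that differed in sperm hyperactive motility. A gene was a member when its pig symbol was CFAP, RSPH, DRC, DNAI or DNAL followed by a number, or SPAG6, SPAG16, SPAG17 or DNALI1, so the rule used names alone. The 61 members were found among 25880 genes in the count tables, of which 14857 had a symbol. They comprised 42 CFAP genes, 6 radial spoke genes, 3 genes of the dynein regulatory complex, 5 dynein intermediate chains, 2 dynein light chains and 3 SPAG genes. Another 4 symbols fitted the rule (DRC12, CFAP53, DNALI1 and CFAP69) but their identifiers had no line in the tables, and they were not analysed here. In all, 59 members reached 1 CPM, a read count scaled to the size of its library, in at least 11 of the 21 libraries and were tested together with the other genes that passed, 12835 in all. CFAP73 and CFAP90 did not pass, with 8 to 143 counts and 33 to 96 counts per library.

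Sperm swim by bending an axoneme, a ring of doublet microtubules around a central pair. Dynein arms on the doublets make them slide, and the central apparatus, the radial spokes and the nexin-dynein regulatory complex set which arms are active at each moment. Cilia and flagella associated proteins, CFAPs, are a mixed set of axonemal proteins that line the inside of the doublets, form projections of the central pair, hold the dyneins in place or help to assemble them. Their genes are transcribed in the testis mainly in meiotic and post-meiotic germ cells, where the tail is built.

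Each library came from the testis of 1 purebred boar used for artificial insemination, with the tissue taken at slaughter, and 13 Landrace and 8 Duroc boars were analysed. Hyperactive sperm beat their tails in wide, asymmetric strokes, and the share of such sperm in ejaculates came from computer-assisted sperm analysis. Contrast (i) set 4 Landrace boars with high hyperactivity on the day of ejaculation, day 0 (L5 to L8), against 4 with low hyperactivity (L1 to L4). Contrast (iii) set 3 Landrace boars classed as high for the change in hyperactivity during 96 h of liquid storage at 18 °C (L7, L13 and L15) against 4 classed as low (L2, L9, L10 and L12). Contrast (ii) set 5 Duroc boars labelled high (D1 to D5) against 3 labelled low (D6, D7 and D9). L2 and L7 were in both Landrace contrasts, and all 21 boars entered the breed comparison, so these comparisons share boars. Matched by name, the study's own table of boars placed 7 of the 8 Duroc boars in the opposite group, and the labels were kept here. The labels give no age, treatment or genotype beyond the breed.

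The libraries held 41358671 to 125576407 counts on genes. Whole testis was sequenced, so fewer cells of a type and less RNA per cell cannot be told apart. Markers of late germ cells were abundant in every library, TNP1 at 3300 to 7880 CPM among them, and epididymal CRISP1 did not exceed 0.14 CPM. AMH, a Sertoli cell gene, was listed at 0 in every library. L13 stood apart from the other libraries, with a median correlation of 0.951 with them over the tested genes, where the lowest of the other 20 boars was at 0.967. The 59 members summed to 5721 CPM in L13 and to between 6089 and 9571 CPM in the other boars.

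CPM given below were normalised over all 21 libraries and are not corrected for transcript length, so levels are compared between boars and not between genes. A fitted change is a log2 fold change, high over low or Duroc over Landrace, with its standard error (SE). Tests are edgeR's quasi-likelihood F tests, each p being adjusted by the Benjamini-Hochberg procedure over all 12835 genes, and a gene passed at an adjusted p under 0.05. The coefficient of variation of a member over the 13 Landrace boars ranged from 11% for CFAP298, a dynein assembly factor, to 62.6% for RSPH6A, a spoke head protein, with a median of 21.2%. Over the 8 Duroc boars it ranged from 8.93% for DRC1, a scaffold of the dynein regulatory complex, to 48.9% for CFAP74, a central apparatus protein, with a median of 20.8%. By mean CPM the 5 members with most reads were CFAP97, CFAP70, CFAP97D1, SPAG17 and CFAP206, with means of 366 to 1101 CPM, and the 5 tested members with fewest were DNAI1, CFAP77, CFAP99, CFAP410 and RSPH14, with means of 2.59 to 5.74 CPM.

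Contrast (i) asked whether these genes differed in testis with the hyperactivity of fresh Landrace sperm. Lower in the testis of high boars were 3 of 6 radial spoke genes, 2 of 3 of the dynein regulatory complex, 1 of 5 dynein intermediate chains (DNAI2) and 7 of 40 CFAP genes, with fitted changes down to -1.62 (CFAP74). DNAI3, an inner arm chain, was higher, and none of the 3 SPAG genes or 2 light chains passed. By edgeR's quasi-likelihood test, 13 of the 59 members were lower and 1 was higher, 14 in all. Over all tested genes 15.4% were lower and 4.47% higher, or 19.9% in either direction, against 22% and 1.69%, or 23.7%, of the members, so the members' share lay near that of all genes. The median log2 fold change was 0.021 over the members and 0.038 over all tested genes, with 32 members above 0 and 27 below. The split of the calls depended on the scaling, since 1 higher and 13 lower with TMM factors became 3 and 12 with relative log expression factors. DESeq2 gave 5 higher and 14 lower members, where it called 10.5% of all genes higher and 18.7% lower, 29.2% together. The likelihood ratio test called 17 members, against 25.7% of all genes. The call also rested on single boars and on the libraries in the fit. Without L6 none of the 59 members passed in edgeR, with a smallest adjusted p of 0.0555, and only 1 of all 12835 genes passed (0.00779%). At an unadjusted p under 0.05 there were 32 members, against 35.7% of all genes. With all 21 libraries in 1 fit none passed either, as 0.00779% of all genes did, and 24 had an unadjusted p under 0.05, against 35.7% of all genes.

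**Figure D1:**
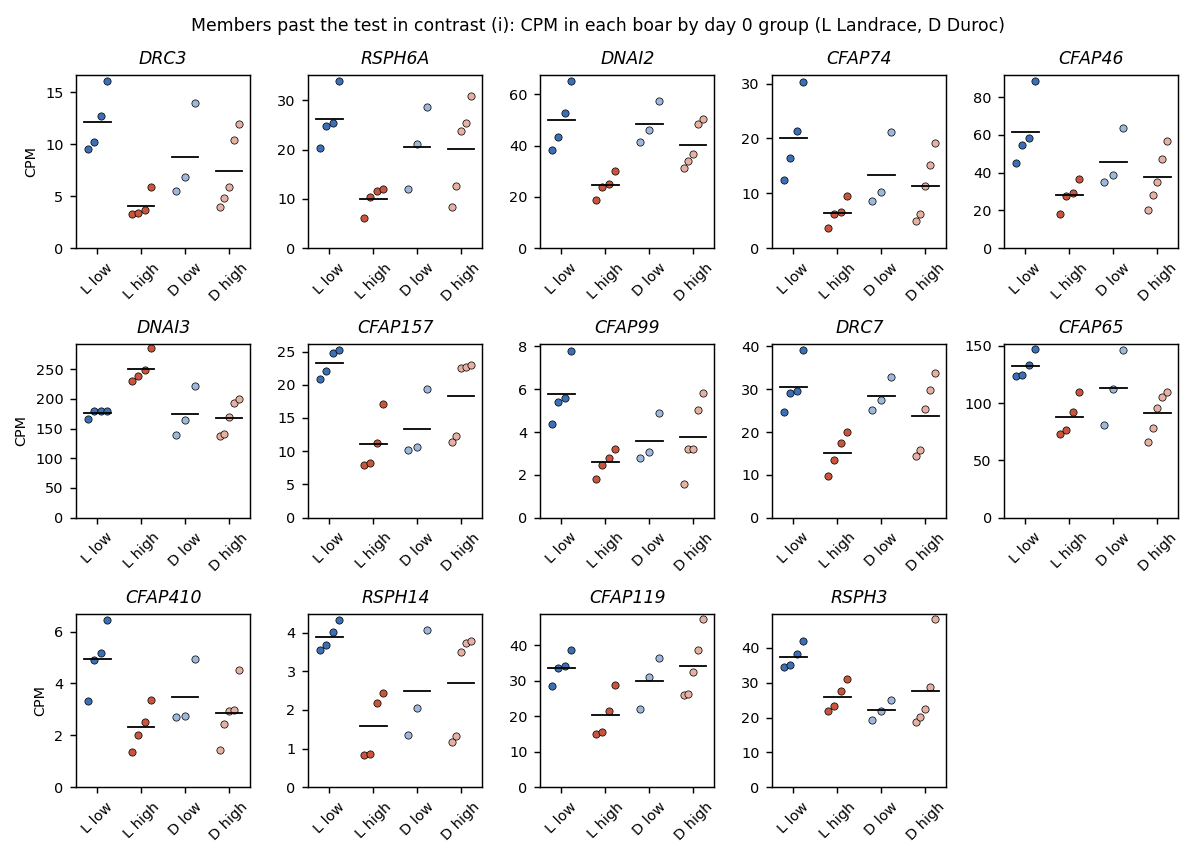
CPM (vertical axis, linear from 0) of the 14 members past the test in contrast (i), 1 panel per gene and 1 point per boar, for Landrace low (4 boars) and high (4 boars) at day 0 and for Duroc labelled low (3 boars) and high (5 boars). Horizontal lines are group means. The Landrace groups separate in every panel but those of CFAP410 and CFAP119, and the Duroc groups overlap in all 14. The genes were chosen by the Landrace test. Groups did not overlap in 27.8% of all tested genes in contrast (i) and in 1.39% in contrast (ii).

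Radial spokes are T-shaped stalks that reach from the doublets to the central pair. Of the 6 spoke genes, 3 passed in contrast (i), all lower, and the fitted change of each of the 6 was below 0, with a median of -0.49. RSPH6A, a spoke head protein found mainly in testis, was at 11.9, 6.1, 11.7 and 10.3 CPM in the high boars L5 to L8 and 24.9, 20.4, 25.5 and 33.9 CPM in the low boars L1 to L4. All 4 high boars were below the lowest low boar, with a fitted change of -1.37 (SE 0.242, adjusted p = 0.0213) and a 95% interval of -1.89 to -0.84. RSPH14, another spoke gene, was at 2.18, 0.854, 2.43 and 0.828 CPM in the high boars L5 to L8 and 4.32, 3.54, 3.68 and 4.02 CPM in the low boars L1 to L4. The groups again did not overlap, L6 and L8 were lowest, and the fitted change was -1.28 (SE 0.38, adjusted p = 0.0388). RSPH3, a protein of the spoke stalk, was at 31.2, 21.9, 27.5 and 23.3 CPM in the high boars L5 to L8 and 42.1, 38.3, 35 and 34.4 CPM in the low boars L1 to L4. It separated the groups by a smaller amount, with a fitted change of -0.51 (SE 0.164, adjusted p = 0.0474). RSPH1 and RSPH9, also of the spoke head, had log2 fold changes of -0.48 (adjusted p = 0.0715) and -0.46 (adjusted p = 0.0794) in the same edgeR test and did not pass. RSPH4A, the head protein of motile cilia that resembles RSPH6A, was at 8.18, 9.28, 12.4 and 12.8 CPM in the high boars L5 to L8 and 7.18, 20.1, 10.2 and 6.7 CPM in the low boars L1 to L4. Its groups overlapped widely, with a fitted change of -0.049 (SE 0.329, adjusted p = 0.917) and a 95% interval of -0.77 to 0.67.

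The dynein regulatory complex links neighbouring doublets and relays signals from the spokes to the inner dynein arms. Of its 3 measured genes under a DRC symbol, 2 were lower in high boars. DRC3 was at 5.87, 3.64, 3.37 and 3.27 CPM in the high boars L5 to L8 and 9.58, 10.2, 16.1 and 12.7 CPM in the low boars L1 to L4. Every high boar was below every low boar, and L5 was the highest of the high boars. The fitted change was -1.57 (SE 0.258, adjusted p = 0.0213), and its 95% interval ran from -2.14 to -1.01. DRC7, another subunit, was at 17.3, 13.5, 20.03 and 9.6 CPM in the high boars L5 to L8 and 29, 24.7, 39.1 and 29.6 CPM in the low boars L1 to L4. Its groups did not overlap, with a fitted change of -0.996 (SE 0.238, adjusted p = 0.0228). DRC1, on which the complex is assembled, was at 144, 96.1, 135 and 126 CPM in the high boars L5 to L8 and 139, 126, 128 and 106 CPM in the low boars L1 to L4. High and low boars were interleaved, with a fitted change of 0.021 (SE 0.154, adjusted p = 0.923) and a 95% interval of -0.31 to 0.36.

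Dynein intermediate chains anchor the heavy chains at the base of the arms. DNAI2, of the outer arm, was at 23.9, 25.1, 18.7 and 30.1 CPM in the high boars L5 to L8 and 43.4, 38.2, 52.9 and 65.4 CPM in the low boars L1 to L4. No high boar reached the lowest low boar, and the fitted change was -1.03 (SE 0.192, adjusted p = 0.0213). DNAI3, of an inner arm, was the 1 member that was higher, at 248, 238, 230.3 and 285 CPM in the high boars L5 to L8 and 180.1, 180.1, 166 and 180.3 CPM in the low boars L1 to L4. The low boars lay within a narrow range with L3 lowest, all high boars were above them, and the fitted change was 0.51 (SE 0.113, adjusted p = 0.0213). DNAI1, the partner of DNAI2 in the outer arm, had a fitted change of -0.79 (SE 0.282, adjusted p = 0.0638). DNAI4 and DNAI7 had log2 fold changes of 0.39 and 0.35 and did not pass (adjusted p = 0.119 and 0.0724, edgeR). The light chains did not pass either. DNAL1, which binds an outer arm heavy chain, was at 259, 252, 181 and 317 CPM in the high boars L5 to L8 and 209, 173, 169.9 and 200.1 CPM in the low boars L1 to L4, with a fitted change of 0.43 (SE 0.158, adjusted p = 0.0692). DNAL4 had a fitted change of -0.18 (SE 0.213, adjusted p = 0.522).

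SPAG6, SPAG16 and SPAG17 are proteins of the central apparatus, which turns inside the ring of spokes in many species. None of the 3 passed in contrast (i), and all 3 fitted changes were above 0. SPAG6 was at 399, 328, 292 and 457 CPM in the high boars L5 to L8 and 305, 312, 268 and 266 CPM in the low boars L1 to L4. L8 was highest, the groups overlapped, and the fitted change was 0.37 (SE 0.149, adjusted p = 0.0906). SPAG16 and SPAG17 had log2 fold changes of 0.39 (adjusted p = 0.136) and 0.26 (adjusted p = 0.172) in edgeR.

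Of the 40 CFAP genes tested, 7 were lower in high boars and none was higher in contrast (i). Of the 6 tested CFAP genes listed here under the central apparatus 3 passed, all lower. CFAP74 was at 9.47, 6.51, 6.24 and 3.58 CPM in the high boars L5 to L8 and 16.4, 12.4, 30.3 and 21.4 CPM in the low boars L1 to L4. The groups did not overlap, with L8 lowest and L3 highest, and the fitted change was -1.62 (SE 0.324, adjusted p = 0.0213). CFAP46, which sits with CFAP74 on a projection of the same central microtubule, was at 36.7, 27.7, 29 and 18.2 CPM in the high boars L5 to L8 and 54.8, 45.2, 88.5 and 58.6 CPM in the low boars L1 to L4. It ordered L3 and L8 in the same way, with a fitted change of -1.13 (SE 0.243, adjusted p = 0.0213). CFAP65 was at 110.0, 76.6, 91.9 and 73.4 CPM in the high boars L5 to L8 and 124, 125, 148 and 134 CPM in the low boars L1 to L4. Its groups did not overlap, with a fitted change of -0.57 (SE 0.156, adjusted p = 0.0304). The other 3 of this class, CFAP54, CFAP70 and CFAP221, had log2 fold changes of 0.22, 0.25 and 0.23 and did not pass. These 3 were chosen for naming after their values were seen.

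The other 4 CFAP genes that were lower were not in the list used here for the central apparatus. Whether their proteins belong to it was not tested. CFAP157, which mice need to form a normal sperm tail, was at 7.85, 11.2, 17 and 8.28 CPM in the high boars L5 to L8 and 25.3, 22.1, 24.7 and 20.9 CPM in the low boars L1 to L4. The low boars lay close together and all high boars were below them, with a fitted change of -1.05 (SE 0.242, adjusted p = 0.0217). CFAP99 was at 3.23, 2.48, 2.78 and 1.83 CPM in the high boars L5 to L8 and 5.59, 5.4, 7.8 and 4.38 CPM in the low boars L1 to L4. Its groups did not overlap, with a fitted change of -1.15 (SE 0.266, adjusted p = 0.0221). CFAP410, a protein of the cilium base, was at 3.36, 2.5, 2.01 and 1.36 CPM in the high boars L5 to L8 and 5.18, 3.32, 6.44 and 4.91 CPM in the low boars L1 to L4. L5 was above the low boar L2, so the groups overlapped, and the fitted change was -1.08 (SE 0.315, adjusted p = 0.0365). CFAP119 was at 28.9, 15.5, 21.5 and 15 CPM in the high boars L5 to L8 and 34, 33.6, 28.6 and 38.6 CPM in the low boars L1 to L4. Here too L5 reached into the low group, and the fitted change was -0.72 (SE 0.226, adjusted p = 0.0457).

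None of the 11 tested CFAP genes whose proteins line the inside of the doublets passed in contrast (i), and their median fitted change was 0.020. None of the 3 at the spoke base, the 4 that tether or modify inner dyneins or the 2 that assist dynein assembly passed. CFAP43, which tethers an inner arm dynein, had the highest fitted change of the CFAP genes, 0.64 (SE 0.214, adjusted p = 0.0538, edgeR). It was at 81.2, 47.4, 37.8 and 70.3 CPM in the high boars L5 to L8 and 38, 41.3, 38.1 and 35.7 CPM in the low boars L1 to L4. L5 and L8 were high, and L7 lay inside the low group. CFAP43 and CFAP141 passed as higher with the likelihood ratio test (adjusted p = 0.0299 and 0.0435) and with DESeq2 (adjusted p = 0.0184 and 0.0325). CFAP97 and DNAL1 passed as higher with DESeq2 only (adjusted p = 0.0453 and 0.0456). DNAI1 passed as lower with the likelihood ratio test (adjusted p = 0.0449) and DESeq2 (adjusted p = 0.0329). The 13 members that were lower had a median of 19.0 CPM over their means, and the 45 that did not pass one of 105.8 CPM. These values compare read numbers only, since CPM are not corrected for transcript length. The ranges overlapped, with CFAP65 at a mean of 106 CPM among the former and CFAP77 at 4.93 CPM among the latter. The smallest of the 13 by reads, RSPH14, had 61 to 309 counts per library.

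**Figure D2:**
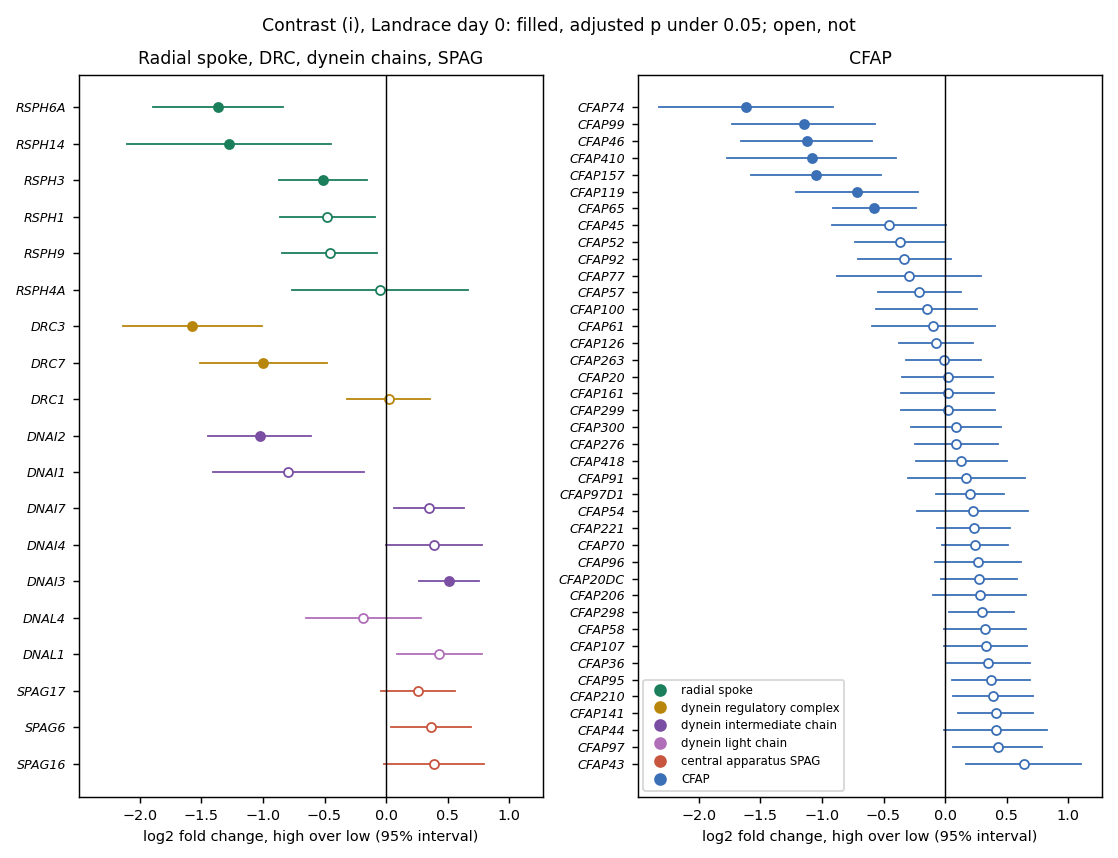
Log2 fold change, high over low, of the 59 tested members in contrast (i) (horizontal axis) with 95% intervals, coloured by role and ordered within each role. Filled points have an adjusted p under 0.05: 13 lie left of 0, from CFAP74 at -1.62 to RSPH3 at -0.51, and DNAI3 lies right of 0 at 0.51.

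Over the 59 members the groups of contrast (i) did not overlap in 20, or 33.9%, against 27.8% of all tested genes. High boars were lower in 14 of the 20 (23.7% of the members against 19.7% of all genes) and higher in 6 (10.2% against 8.13%). At an unadjusted p under 0.05 there were 29 members, or 49.2%, against 41.2% of all genes. Leaving out 1 boar gave 6 members past the test without L3 (5.27% of all genes), 9 without L1 (7.81%), 9 without L8 (8.84%), 10 without L4 (12.1%), 12 without L2 (14.6%), 16 without L7 (19.8%) and 17 without L5 (28.2%). The count of members thus moved with the count over all genes. Without L6 the groups did not overlap in 14 members that were lower, or 23.7% against 21.1% of all genes, and in 9 that were higher, or 15.3% against 9.44%. Such counts can only stay or rise when a boar is left out. Over the 8 fits with 1 boar left out, DRC3, RSPH6A, DNAI2, CFAP74, CFAP46 and CFAP157 passed in 7, DRC7, CFAP99 and DNAI3 in 6, CFAP65 in 4, RSPH14 in 3, CFAP410 in 2, and RSPH3 and CFAP119 in 1. The fitted change of each of the 14 kept its sign in every alternative run. These genes were picked by their changes in the same boars, so a reversal was unlikely from the start. Without both boars shared with contrast (iii), L2 and L7, 14 members passed (14.8% of all genes), 12 of them among the 14.

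**Figure D3:**
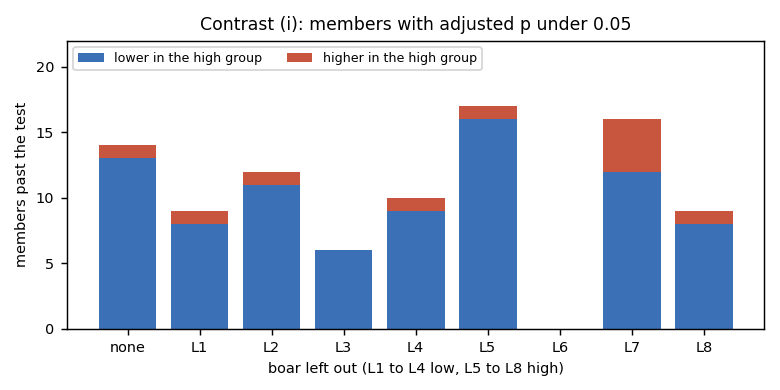
Number of members with an adjusted p under 0.05 in contrast (i) (vertical axis, from 0) with no boar left out and with each of the 8 boars left out, stacked as lower or higher in the high group. The bar is at 14 with all boars, at 0 without L6 and at 17 without L5.

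Several markers of cell types passed the test in contrast (i), as 19.9% of all tested genes did. The marker lists were not tested against that share, and the markers' part in the result was not tested. Of the round spermatid markers 3 of 6 were lower, ACR at -1.06, TSSK2 at -0.97 and SPACA3 at -0.75 on the log2 scale, while the list summed to 819 to 1199 CPM in high boars and 1026 to 1102 CPM in low boars. Of the elongating spermatid markers 3 of 8 were lower (PRM1, TNP2 and ODF2), with sums of 11400 to 15470 CPM in high boars and 11850 to 15950 CPM in low boars. None of 6 spermatocyte markers passed, all with fitted changes above 0, and their sums were 1331 to 2068 CPM in high and 1070 to 1342 CPM in low boars. Of 4 peritubular myoid cell markers 2 were lower, DES and MYH11, and all 4 fitted changes were below 0. Their sums were 17.1 to 61.2 CPM in high and 49.1 to 110.7 CPM in low boars. HBB, of red blood cells, was lower too. The summed markers of ciliated duct cells did not overlap, at 1.28 to 2.20 CPM in high and 2.24 to 3.54 CPM in low boars. Among these, FOXJ1 held most of the reads and did not pass, and the defining epididymal genes CRISP1 and DEFB1 were at or near 0. Of 6 spermatogonial markers ID4 was higher, and no marker of Sertoli, Leydig or endothelial cells or of macrophages passed.

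Other genes of the axoneme were counted beside the members in contrast (i). Over all tested genes 15.4% were lower and 4.47% higher, and the lists were not tested against these shares. Of 10 dynein heavy chains 3 were lower, DNAH17 at -1.19, DNAH2 at -0.94 and DNAH1 at -0.77 on the log2 scale, and none was higher. Of 9 genes of the dynein regulatory complex and its ruler under other symbols, TCTE1 at -1.07 and GAS8 at -1.29 were lower and IQCG at 0.48 was higher. Of 14 dynein assembly factors 4 were lower, LRRC56 at -1.84, DNAAF8 at -1.36, DNAAF5 at -1.18 and ZMYND10 at -0.65. Of 14 partners of the central apparatus and spokes 3 were lower, SPEF1, AK8 and MYCBPAP. Of 17 further doublet inner proteins PIERCE1, TEKT5 and TEKT2 were lower and MNS1 at 0.59 was higher. Of 8 dynein chains under other symbols DYNLL2 at 0.46 was higher, and neither of 2 docking genes passed. RFX1 at -1.06 and RFX2 at -1.08, of the factors that switch on genes of cilia and spermatids, were lower, as 2 of 9 in that list. None of these 83 tested genes is a member. The median fitted change of the 8 lists lay between -0.018 and 0.154, where that of all tested genes was 0.038.

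Contrast (iii) asked the same of the change in hyperactivity over storage. Most fitted changes of the members were below 0, meaning less RNA in boars with a high change, but none passed the test. The median log2 fold change was -0.28 over the 59 members and 0.0029 over all tested genes, and 51 of the 59 were below 0. By edgeR's quasi-likelihood test 0 members passed, where 1 gene of 12835, or 0.00779%, passed in all. The count of members was also 0 with the likelihood ratio test and with DESeq2, which called 57 and 116 genes, or 0.444% and 0.904%. At an unadjusted p under 0.05 there were 13 members, all lower. These were 22% of the members, against 10.3% of all genes lower and 19.8% in either direction. The groups did not overlap in 12 members, all lower, or 20.3%, against 8.69% of all genes lower and 16.2% in either direction.

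RSPH3, of the spoke stalk, was at 27.5, 17.4 and 26.6 CPM in the high boars L7, L13 and L15 and 38.3, 31.9, 35.4 and 48 CPM in the low boars L2, L9, L10 and L12. The groups did not overlap, with L13 lowest, and it had a fitted change of -0.68 (SE 0.209, adjusted p = 0.241). RSPH6A was at 11.7, 6.38 and 11.3 CPM in the high boars L7, L13 and L15 and 20.4, 13.7, 15.4 and 44.5 CPM in the low boars L2, L9, L10 and L12. L12 stood far above the other low boars, the groups did not overlap, and the fitted change was -1.25 (SE 0.4, adjusted p = 0.241). RSPH9, the spoke gene nearest to 0, had a fitted change of -0.49 (SE 0.206, adjusted p = 0.246), and all 6 spoke genes were below 0 with a median of -0.69. DRC3 was at 3.37, 2.63 and 5.39 CPM in the high boars L7, L13 and L15 and 10.2, 5.66, 6.21 and 15.3 CPM in the low boars L2, L9, L10 and L12. The lowest low boar, L9, was close to the highest high boar, L15, and the fitted change was -1.29 (SE 0.381, adjusted p = 0.241). DRC1 had a fitted change of -0.36 (SE 0.236, adjusted p = 0.374).

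DNAI2 was at 18.7, 12.9 and 28.8 CPM in the high boars L7, L13 and L15 and 38.2, 30.6, 24.6 and 43.4 CPM in the low boars L2, L9, L10 and L12. L15 was above the low boar L10, so the groups overlapped, and the fitted change was -0.76 (SE 0.281, adjusted p = 0.241). DNAI3, higher in contrast (i), had a fitted change of 0.071 (SE 0.143, adjusted p = 0.783). The light chains DNAL1 and DNAL4 were at 0.02 and -0.16 on the log2 scale. Of the SPAG genes, SPAG17 had the lowest value at -0.28 and SPAG6 the highest at -0.041. Among the CFAP genes CFAP119 had the smallest p, at 21.5, 11.06 and 20.9 CPM in the high boars L7, L13 and L15 and 33.6, 28.4, 22.7 and 34.3 CPM in the low boars L2, L9, L10 and L12, without overlap and with a fitted change of -0.73 (SE 0.255, adjusted p = 0.241). CFAP74 had the lowest change, -0.93 (adjusted p = 0.246, edgeR), and CFAP418, known from inherited retinal disease, the highest, 0.33 (adjusted p = 0.341).

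The counts in contrast (iii) moved with single boars. Without L13 the median of the members was -0.12, 40 of 59 were below 0, and 5 had an unadjusted p under 0.05, all lower, against 7.99% of all genes. That count was 6 without L10 (15.6% of all genes), 6 without L12 (9.79%) and 21 without L15 (29.2%), where the median of the members was -0.41. The 12 non-overlapping members were as many without L13, against 10% of all genes lower, with 2 high boars left. That count could not fall, since leaving out a boar cannot make separate groups overlap. Summed elongating spermatid markers did not overlap either, at 6514 to 12850 CPM in boars with a high change and 12930 to 15650 CPM in boars with a low change. L13 was lowest, none of the 8 markers passed and all 8 fitted changes were below 0. Markers of Leydig cells (5 of 5) and endothelial cells (4 of 4) had fitted changes above 0, and none passed. The part of these cells in the members' values was not tested.

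The other axoneme genes had fitted changes mostly below 0 in contrast (iii), and none of the 83 passed edgeR's test. All 10 heavy chains were below 0, with a median of -0.24 and DNAH1 at -0.65 and DNAH17 at -0.82. All 9 genes of the dynein regulatory complex and ruler under other symbols were below 0, with a median of -0.31 and TCTE1 at -0.85 and GAS8 at -0.79. Of the partners of the central apparatus and spokes 13 of 14 were below 0, of the further doublet inner proteins 14 of 17, of the assembly factors 10 of 14 and of the docking genes both. Of the dynein chains under other symbols 5 of 8 and of the transcription factors 5 of 9 were below 0, with highest values of 0.46 and 0.58.

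**Figure D4:**
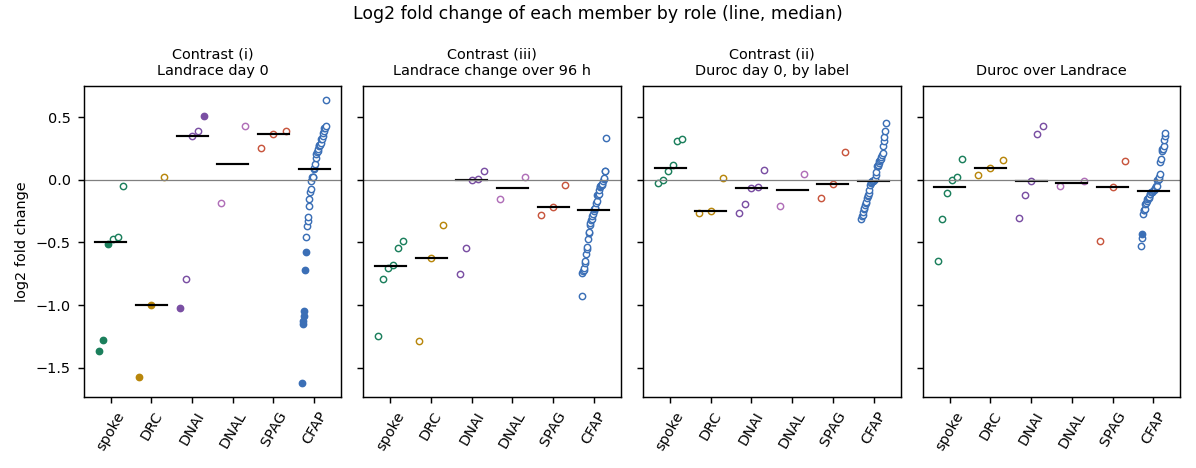
Log2 fold change (vertical axis) of each of the 59 tested members in contrasts (i), (iii) and (ii) and between breeds, by role (spoke, dynein regulatory complex, dynein intermediate chains, dynein light chains, SPAG, CFAP). Filled points passed the test and black lines are medians; the spoke median is at -0.49 in contrast (i), -0.69 in contrast (iii), 0.094 in contrast (ii) and -0.053 between breeds. The panels share boars.

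Contrast (ii) made the day 0 comparison in Duroc boars by their labels. By edgeR's quasi-likelihood test 0 of the 59 members passed, 0 had an unadjusted p under 0.05, and the count past the threshold was also 0 with the likelihood ratio test and with DESeq2. Over all genes 0% passed, and 1.22% had an unadjusted p under 0.05. No member had groups without overlap, against 1.39% of all genes. The median log2 fold change was -0.0085 over the members and 0.043 over all genes. Since the study's table of boars gives other groups for 7 of these 8 boars by name, the sign, size and rank of every value here depend on the labels. A fit with the groups of that table was not made. RSPH6A was at 30.9, 8.32, 12.6, 25.4 and 23.7 CPM in the high boars D1 to D5 and 21.1, 11.9 and 28.6 CPM in the low boars D6, D7 and D9. The groups overlapped over most of their range, with a fitted change of -0.025 (SE 0.406, adjusted p = 1.0) and a 95% interval of -0.91 to 0.87. DNAI2 was at 48.6, 31.2, 34, 50.6 and 36.9 CPM in the high boars D1 to D5 and 46.1, 41.6 and 57.6 CPM in the low boars D6, D7 and D9. The groups overlapped, and the interval was -0.71 to 0.18 around -0.27. DRC7 had a log2 fold change of -0.26 with an interval of -0.87 to 0.35, and RSPH3 one of 0.33 with an interval of -0.33 to 0.98. CFAP97D1, which maintains the sperm axoneme in mice, had the smallest p, 0.0877 unadjusted in edgeR, at 418, 650.2, 489, 569.8 and 399 CPM in the high boars D1 to D5 and 466, 314 and 378 CPM in the low boars D6, D7 and D9. D6 lay within the range of the high boars, and D7 and D9 lay below it. CFAP157 was at 23, 11.4, 12.3, 22.5 and 22.7 CPM in the high boars D1 to D5 and 10.6, 10.2 and 19.3 CPM in the low boars D6, D7 and D9. The groups overlapped, with a fitted change of 0.46 and an interval of -0.24 to 1.15. By these labels CFAP65 had the lowest CFAP change, -0.31.

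The difference between the Duroc and the Landrace day 0 changes was tested as an interaction over 16 libraries, and it too depends on the Duroc labels. The signs, sizes and ranks below hold for those labels only. By edgeR's quasi-likelihood test 0 of the 59 members passed, as 0% of all genes did, and the count of members was 0 with the likelihood ratio test and DESeq2, which called 0.0234% and 0.0467% of all genes. At an unadjusted p under 0.05 there were 12 members, or 20.3%, against 15% of all genes. The 12 became 5 without D6 (6.13% of all genes), 6 without D7 (8.9%) and 24 without D2 (27.8%). CFAP157 had the smallest p of the members, with a difference in log2 fold change, Duroc minus Landrace, of 1.49 (SE 0.427, unadjusted p = 0.00282 and adjusted p = 0.331 in edgeR). The difference was 1.33 for RSPH6A, 1.31 for DRC3 and 0.73 for DNAI2, and -0.60 for DNAI3 and -0.54 for SPAG6. Each of these had an adjusted p of 0.331, and no difference between the breeds in these changes passed.

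The breed comparison set the 8 Duroc against the 13 Landrace boars. The fitted differences of the members, Duroc over Landrace, ran from -0.64 for RSPH4A to 0.43 for DNAI1, and 1 gene passed. By edgeR's quasi-likelihood test CFAP210 was lower in Duroc, 1 of 59 members or 1.69%, against 1.48% of all genes lower and 2.77% in either direction. The likelihood ratio test called 2 members (3.87% of all genes) and DESeq2 3 (4.18%). The median log2 fold change was -0.062 over the members and -0.0075 over all genes. At an unadjusted p under 0.05 there were 11 members, or 18.6% against 12.2% of all genes, and 9 of them were lower in Duroc, or 15.3% against 6.02%. No member had breeds that did not overlap, as 0.28% of all genes had.

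CFAP210, a protein that lines the inside of the doublets, had a lowest, median and highest value of 128, 135 and 184 CPM in Duroc and of 139, 191 and 275 CPM in Landrace. The means were 143 ± 18.1 CPM (SD, n = 8) and 192 ± 35.9 CPM (SD, n = 13). Of the Duroc boars D2 was highest and the others lay at or below the low end of the Landrace range, with a fitted change of -0.43 (SE 0.106, adjusted p = 0.0254) and a 95% interval of -0.65 to -0.21. It no longer passed without D3, D4, D5, D7 or D9, with an adjusted p of at most 0.0559 in edgeR over the 21 fits that each left out 1 boar. It passed neither among boars labelled high nor among those labelled low at day 0, and its fitted change stayed between -0.56 and -0.18 over all alternatives.

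CFAP57, which modifies inner dyneins, had a lowest, median and highest value of 77.6, 84.4 and 127 CPM in Duroc and of 57.5, 131 and 165 CPM in Landrace. L13 was the lowest Landrace boar, and the fitted change was -0.47 (SE 0.142, adjusted p = 0.0819). It passed without L13, without D5, among boars labelled low at day 0, and with the likelihood ratio test and DESeq2. CFAP300, a dynein assembly factor, had values of 50.3, 176 and 213 CPM in Duroc and of 181, 227 and 313 CPM in Landrace. Its lowest Duroc boar stood far below the rest, with a fitted change of -0.52 (SE 0.171, adjusted p = 0.114), and it passed with DESeq2. SPAG16 had values of 17.5, 20.4 and 36.8 CPM in Duroc and of 21.7, 27.9 and 56.9 CPM in Landrace. D2 was far above the other Duroc boars, the fitted change was -0.49 (SE 0.168, adjusted p = 0.142), and it passed without D2.

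**Figure D5:**
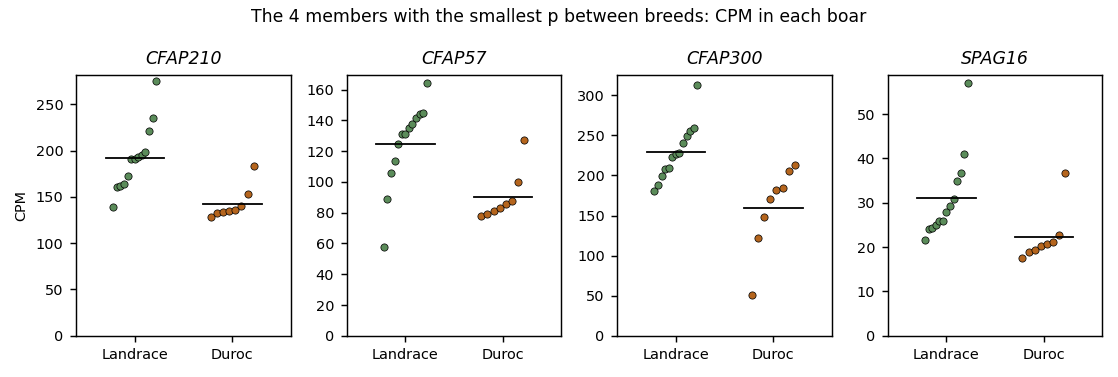
CPM (vertical axis, linear from 0) of the 4 members with the smallest p between breeds, 1 point per boar, for 13 Landrace and 8 Duroc boars, with group means as lines. The Duroc mean is below the Landrace mean in each panel and the breeds overlap in all 4, with SPAG16 in D2 at 36.8 CPM and CFAP57 in D5 at 127 CPM inside the Landrace range; only CFAP210 passed the main test.

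The other roles showed no member past the test between breeds. DNAI3 had a fitted change of -0.31 (SE 0.11, adjusted p = 0.173), and DNAI1 the highest change of its role, 0.43 (adjusted p = 0.504, edgeR). RSPH4A had a fitted change of -0.64 (SE 0.271, adjusted p = 0.294), with values of 3.68, 7.06 and 10.9 CPM in Duroc and 4.41, 10.2 and 22.5 CPM in Landrace. RSPH6A, DRC3 and RSPH14 had intervals that ran from -0.51 to 0.84, from -0.65 to 0.72 and from -0.66 to 0.71 on the log2 scale. These intervals hold 0 and reach past a 1.5-fold difference in at least 1 direction. For DNAL1 and SPAG17 they were -0.30 to 0.20 and -0.07 to 0.38. Of the other axoneme genes DNAH11 at -1.15 was lower in Duroc, 1 of 10 heavy chains, and SPEF2 at 0.89, NME8 at 0.67 and DYNLT5 at 0.97 were higher. DNAAF10 at -0.32 was lower, 1 of 14 assembly factors. Marker lists gave 1 called gene each for spermatogonia (KIT, lower), round spermatids (CATSPER3, lower) and Sertoli cells (GATA4, higher), and their part in the breed values was not tested.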

How the data were processed

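Polyadenylated testis RNA was sequenced by the authors as stranded single reads with 1 library per boar. They trimmed reads with Trimmomatic 0.36, aligned them with STAR to the Sscrofa11.1 genome and counted them per Ensembl gene, by strand, with HTSeq. The deposited values are raw counts, 1 file per boar with 25880 genes and 5 lines that name no gene. Those lines held 29.4% to 39.0% of the reads and were left out. No 2 libraries of a group agreed within sampling noise (lowest chi-square per degree of freedom 57.2), which was foreseeable for separate boars.

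The tests used edgeR 4.0.16 under R 4.3.3. Libraries of 1 comparison were scaled by TMM and fitted with the quasi-likelihood test (the study names a likelihood ratio test in edgeR 3.12.1, run as an alternative), and DESeq2 1.42.0 was another alternative. The tests set the difference between groups against the spread between boars. Scripts were tested on simulated counts. Gene symbols came from an identifier table, and members had RefSeq coordinates in 39 of 61 cases, too few for a check of gene length. No genome or sequence was used here. Members, lists and CFAP classes were chosen with earlier results of these data known. Named genes are members past the test and, per role, those with the smallest p and the highest and lowest fold change, and by CPM the 5 highest and lowest. All members of roles with 6 genes or fewer, and genes of other lists that passed, were open to naming, a choice made after their values were seen. Depth is the total of counts on genes (41358671 to 125576407).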

Additional observations from a re-analysis of the deposited data

Results flagged for a closer look

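In 6 of 85 groups of 4 to 10 boars, 1 boar lay apart from the others by Dixon's ratio, where chance gives about 4.25 (1 in 20). In the low group of contrast (i), DNAI3 was at 166 CPM in L3 and at 180 CPM in the other 3 boars. In the high group of contrast (i), DRC3 was at 5.87 CPM in L5 and at 3.27 to 3.64 CPM in the others. In the low group of contrast (iii), DNAL4 was at 79.5 CPM in L12 and at 47.4 to 52 CPM in the others. Among the Duroc boars CFAP210 was at 184 CPM in D2 and at 128 to 153 CPM in the others. SPAG16 was at 36.8 CPM in D2 and at 17.5 to 22.8 CPM in the other Duroc boars, and D2 lay apart both among the 5 Duroc boars labelled high and among all 8. No difference between contrasts (i) and (ii) passed the interaction test.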

How the results depend on the processing

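In contrast (i) the 14 members past the test became 17 with the likelihood ratio test, 19 with DESeq2, 15 with relative log expression factors, 15 with no filter beyond 1 count in 1 library, 14 with the filter within the comparison, 14 with a robust fit and 0 with all 21 libraries in 1 fit. With 1 boar left out the count ran from 0 to 17. The cause of these moves was not tested. Between breeds, where 1 member passed, the count was 2 with the likelihood ratio test, 3 with DESeq2, 0 among boars labelled high at day 0 and 1, another gene, among those labelled low, and it ran from 0 to 2 with 1 boar left out. In contrasts (ii) and (iii) and for the interaction the count was 0 in every alternative run. The median log2 fold change of the members ran, with 1 boar left out, from -0.078 to -0.030 between breeds, from -0.030 to 0.14 in contrast (i), from -0.077 to 0.057 in contrast (ii), from -0.41 to -0.12 in contrast (iii) and from -0.061 to 0.086 for the interaction. The counts without L6 or L13 of members whose groups do not overlap were added after seeing the data. No fitted change of a called member reversed its sign under any alternative, which was unlikely for genes picked by their changes in the same boars. A correction for GC content and transcript length was not run, since no genome or transcript table was used here. No paired analysis was possible because the labels give the boars no replicate numbers that the groups share. With 3 to 5 boars per group, intervals of members with few reads are wide.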

Other observations

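Of the members with RefSeq coordinates on Sscrofa11.1, 2 pairs of neighbours had starts less than 1 Mb apart. DRC7, on chromosome 6 from 19603413 to 19629175, and CFAP20, from 19954698 to 19969383, had log2 fold changes of -0.996 and 0.020 in contrast (i), and the first of them passed edgeR's quasi-likelihood test. CFAP43, on chromosome 14 from 115073529 to 115201965, and CFAP58, from 115292386 to 115410852, had log2 fold changes of 0.64 and 0.32 in the same contrast, and neither passed. These pairs were picked after their values were seen.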
